A study of Mus musculus with 9 samples.

Results

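Prostaglandin E2 is a lipid signal of inflammation, and the genes that make, break down and sense it were examined here in 3T3 cells, fibroblasts of a mouse embryo that grow as an immortal line. The set held 10 genes chosen by symbol, namely Ptgs1, Ptgs2, Ptges, Ptges2, Ptgis, Hpgd and the receptors Ptger1, Ptger2, Ptger3 and Ptger4. Of these, 9 had a row of their own among the 19698 genes measured, and Ptgs1 was not analysed here. The set was chosen with earlier results of these data known. Levels came from 9 Affymetrix mouse Gene 1.0 ST arrays in 3 groups of 3. BAF-knockdown cells treated with mouse TNF-α (5 ng per ml for 1 h) stably expressed, from the mouse U6 promoter of a retroviral vector that also carries GFP, a single short hairpin RNA against a sequence shared by Brg1 and Brm, and had been sorted for high GFP. Control cells given the same TNF-α treatment formed the next group, and unstimulated control cells the last. The sources used here do not give what vector the control cells carried, and BAF-knockdown cells without TNF-α were not analysed here. All cells were grown subconfluent. Brg1 and Brm, encoded by Smarca4 and Smarca2, are the ATPases of the BAF nucleosome remodelling complex.

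Prostaglandin synthesis starts when a phospholipase frees arachidonic acid from membranes. A cyclooxygenase, encoded by Ptgs1 (largely constitutive) or Ptgs2 (inducible), turns it into prostaglandin H2, and terminal synthases then convert that shared intermediate into different prostanoids. In many cell types inflammatory cytokines induce Ptgs2 together with Ptges, the microsomal synthase of prostaglandin E2, while Hpgd encodes the dehydrogenase that inactivates the product. The receptors differ in what they couple to, with EP2 and EP4 raising cyclic AMP, EP3 mostly lowering it and EP1 mobilising calcium.

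The promoters of the 3 genes that were higher after TNF-α in at least one form of the test are shown first, as context for their shared rise. Each line gives the 250 bases before a RefSeq start of transcription (GRCm38.p6), 5′ to 3′ on the strand of the gene. Matches to the motifs searched are in capitals. The windows lie at chr2:30903298-30903547 (minus strand) for Ptges, chr1:150099781-150100030 (plus strand) for Ptgs2 and chr15:5244188-5244437 (minus strand) for Ptger4. The Ptges start used lies within the annotated gene span (chr2:30889471-30931020) and not at its upstream end.
Ptges: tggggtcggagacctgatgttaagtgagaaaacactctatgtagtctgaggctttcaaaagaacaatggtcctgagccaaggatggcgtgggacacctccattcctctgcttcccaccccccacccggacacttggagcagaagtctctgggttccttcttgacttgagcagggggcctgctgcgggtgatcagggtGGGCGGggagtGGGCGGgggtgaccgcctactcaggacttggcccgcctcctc
Ptgs2: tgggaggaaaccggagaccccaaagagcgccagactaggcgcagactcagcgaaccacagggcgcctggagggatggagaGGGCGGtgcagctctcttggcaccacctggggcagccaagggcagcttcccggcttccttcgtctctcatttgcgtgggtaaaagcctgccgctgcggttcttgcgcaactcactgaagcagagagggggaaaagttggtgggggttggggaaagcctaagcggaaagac
Ptger4: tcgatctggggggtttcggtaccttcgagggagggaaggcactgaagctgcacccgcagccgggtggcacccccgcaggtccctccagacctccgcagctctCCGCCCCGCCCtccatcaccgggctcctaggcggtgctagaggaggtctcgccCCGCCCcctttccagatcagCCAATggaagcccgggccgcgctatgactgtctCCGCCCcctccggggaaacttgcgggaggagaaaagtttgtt

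The capitals mark the GC box GGGCGG, bound by zinc finger factors such as Sp1, and in Ptger4 also 1 CCAAT box (CCAAT), both searched on either strand. Counting the base before the start as -1, Ptges held 2 GC boxes, beginning at -53 and -42, Ptgs2 held 1 at -170, and Ptger4 held 4, of which a pair overlapped by 1 base. RefSeq promoters were at hand for 7 of the 9 measured genes. A GC box was found in 5 of these 7 and in 32.7% of all 32851 promoters of the same length. The 5 included Hpgd and Ptger3, which were not called after TNF-α. A CCAAT box was found in 2 of 7 (Ptger2 and Ptger4) and in 33.8% of all promoters. The NF-kB consensus (7.25% of all promoters), the TATA box TATAAA (12.4%) and the cyclic AMP response element core TGACG (17.8%) had no match in the 7 windows. Such matches describe letters and were not tested for function. Bases farther upstream or past the start were not searched, so a missing match holds for these windows alone. It does not show that a gene lacks the motif.

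Levels are given as RMA log2 signals, in which 1 unit is a doubling, and differences carry the standard error of a limma fit over all 9 arrays (6 residual degrees of freedom). A gene was called at a Benjamini-Hochberg adjusted p under 0.05 over all 19698 genes. Arrays that share a replicate number deviated together, so a second fit with the replicate number as a block is quoted as the blocked value wherever it alters a call. Whether same-numbered cultures were grown side by side is not stated, and p-values measure only the spread between these arrays.

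The knockdown target Smarca4 had levels of 10.50, 10.64 and 10.25 in BAF-knockdown arrays 1, 2 and 3, against 11.62, 11.53 and 11.56 in TNF-treated control arrays (difference -1.11 ± 0.09, limma adjusted p = 0.00362). Smarca2 was not called (-0.36 ± 0.20, limma adjusted p = 0.734, blocked 0.129). Its knockdown arrays (9.12, 9.38 and 9.12) nevertheless all lay below the TNF-treated control arrays (9.51, 9.81 and 9.39). By quantitative RT-PCR, the paper reports that the hairpin lowered both transcripts, each by more than on these arrays. Here the fold was 2.15 for Smarca4 and 1.29 for Smarca2. Of 10 fibroblast markers, 8 lay above the array median on all 9 arrays, with Vim highest, while Lum lay below the first quartile on all. Among markers of other cells, 5 of 9 leukocyte genes (Ptprc among them), 1 of 6 epithelial genes (Epcam) and 2 of 5 endothelial genes lay below the first quartile on all arrays. Above the array median on all arrays lay 1 leukocyte, 1 epithelial and 0 endothelial genes. The highest means of these lists were 8.25 (Cd68), 8.30 (Krt8) and 7.82 (Vwf). Array medians lay between 7.77 and 7.83.

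The first comparison asked which members respond to TNF-α in control cells. After 1 h Ptges rose 2.16-fold, and Ptgs2 and Ptger4, at 2.65 and 1.59 times their unstimulated level, were called with the replicate block alone. The other synthases, Hpgd and the remaining receptors were not called. Ptgs2, the inducible cyclooxygenase, was among the brightest genes measured, its mean exceeding that of 98.9% of all genes. Its log2 level was 13.79, 13.49 and 13.41 in TNF-treated control arrays 1, 2 and 3, against 12.44, 11.61 and 12.43 in unstimulated arrays. All treated arrays lay above all unstimulated ones, and unstimulated array 2 was the lowest by far. The mean difference of 1.40 ± 0.24 amounts to a 2.65-fold higher level (limma adjusted p = 0.143, not called). In the blocked fit Ptgs2 was called (blocked adjusted p = 0.00866), with differences of 1.35, 1.88 and 0.98 within numbers 1, 2 and 3.

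Ptges, the synthase that makes prostaglandin E2 from the cyclooxygenase product, spread less between arrays. Its level was 11.03, 10.76 and 11.02 in TNF-treated control arrays, against 9.63, 9.90 and 9.95 in unstimulated arrays. These groups were also fully separated, with less spread than Ptgs2 in either of them. The difference was 1.11 ± 0.13 (limma adjusted p = 0.0182, blocked 0.00637), and the rises within numbers were 1.40, 0.86 and 1.08. Ptges was the only member called without the block. That call was lost without any of unstimulated arrays 1, 2 and 3, TNF-treated control arrays 1 and 3, or BAF-knockdown array 1 (adjusted p between 0.0534 and 0.139), with the difference between 1.01 and 1.20 whichever array was left out.

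**Figure D1:**
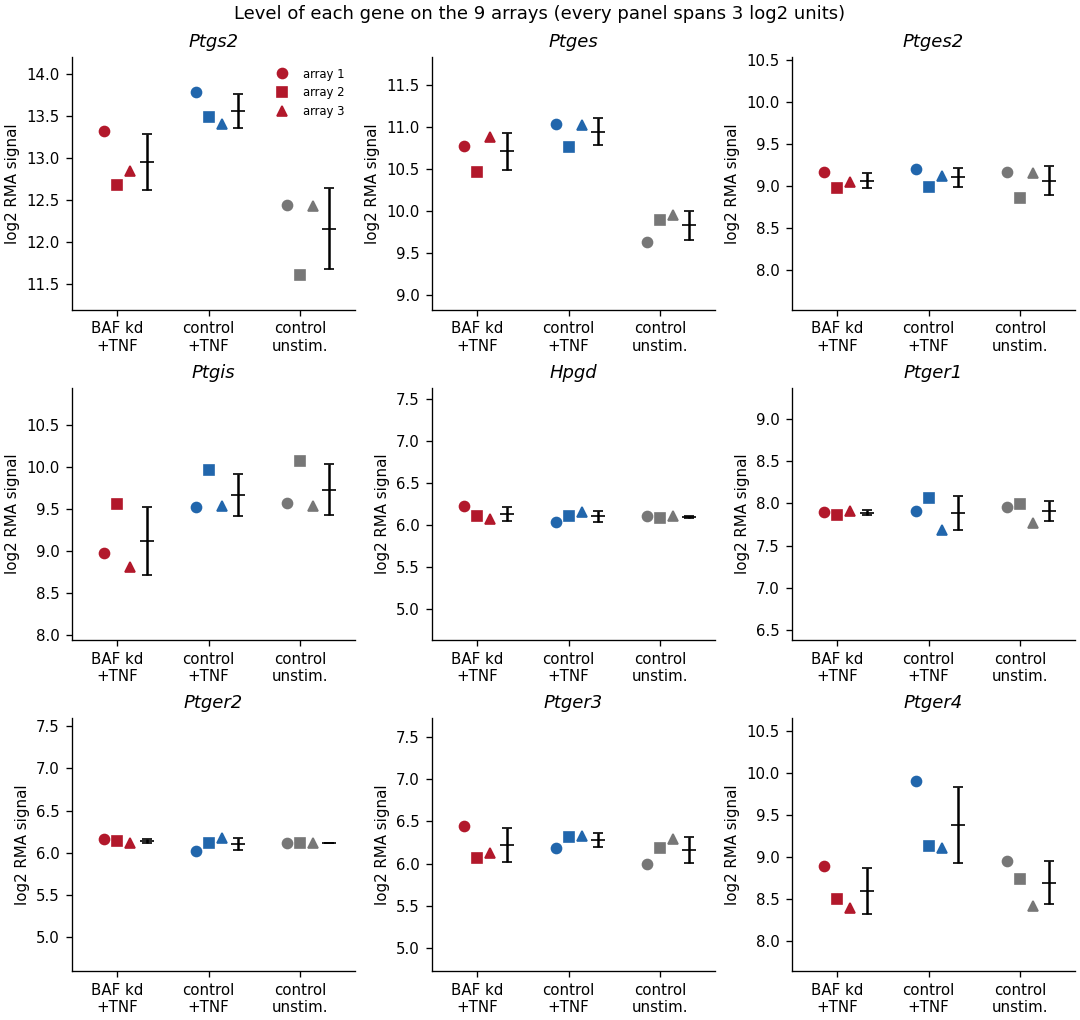
RMA log2 signal (y axis, 3 units in every panel, not starting at 0) of the 9 measured genes in BAF-knockdown cells with TNF-α, control cells with TNF-α and unstimulated control cells (x axis). Each point is 1 array, its shape giving the replicate number, with the mean ± SD beside it (n = 3). Ptgs2, Ptges and Ptger4 stand higher in TNF-treated than in unstimulated control cells, Ptgis and Ptger4 have their lowest means in the knockdown, and Hpgd, Ptger2 and Ptger3 stay near 6.

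Among the receptors, Ptger4, which encodes the cyclic AMP-raising receptor EP4, was the one that differed after TNF-α. Its level was 9.90, 9.13 and 9.11 in TNF-treated control arrays, against 8.95, 8.74 and 8.42 in unstimulated arrays. The groups did not overlap, although treated array 1 stood well above the other treated arrays. The difference of 0.67 ± 0.23, or 1.59-fold, was not called without the block (limma adjusted p = 1), and without treated array 1 it was 0.41. With the block it was called (blocked adjusted p = 0.0415), the rises within numbers being 0.95, 0.39 and 0.68.

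The other members gave no call after TNF-α in either fit. Ptges2, which encodes a second membrane-associated prostaglandin E synthase, averaged 9.10 ± 0.11 in TNF-treated and 9.06 ± 0.17 in unstimulated control cells (SD, n = 3 each), a difference of 0.04 ± 0.10. Ptgis, which diverts prostaglandin H2 to prostacyclin, averaged 9.67 ± 0.25 in TNF-treated and 9.73 ± 0.30 in unstimulated control cells, a difference of -0.06 ± 0.22. Over all 9 arrays, Ptger1 lay between 7.68 and 8.07. Hpgd (6.04 to 6.22), Ptger2 (6.02 to 6.17) and Ptger3 (6.0 to 6.45) lay below the first quartile of the measured genes on every array. These 3 genes encode the inactivating enzyme and the receptors EP2 and EP3. Whether their signal exceeded background was not tested.

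By count, 1 of the 9 measured members was called higher after TNF-α and 0 lower, where 0.137% and 0% of all genes were called by limma. With the block 3 were higher and 0 lower, against 0.366% and 0.0305% of all genes. Arrays of the treated group lay wholly above the unstimulated ones in 3 members, as in 3.19% of all genes, and at an unadjusted p under 0.05 the same 3 were higher (Ptgs2, Ptges and Ptger4), as were 1.85% of all genes. The median difference over the members was 0.04, against 0.00 over all genes. As the members were chosen with earlier results of these data known, such counts, here and below, are a description. The blocked calls depended on which replicate number was included. All 3 were kept without the arrays numbered 2. Without those numbered 3 Ptgs2 alone was called (blocked adjusted p = 0.0494, with 0.207 for Ptges and 0.592 for Ptger4), and without those numbered 1 none was (0.734 for Ptgs2, 0.367 for Ptges and 0.81 for Ptger4).

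The second comparison asked which members differed in TNF-treated cells that expressed the hairpin against the remodelling ATPases. Ptger4 and Ptgis were lower in the knockdown, by 1.71- and 1.47-fold, called with the replicate block alone. Ptgs2 and Ptges were not called in either fit. For Ptger4 the level was 8.90, 8.51 and 8.40 in BAF-knockdown arrays 1, 2 and 3, against 9.90, 9.13 and 9.11 in TNF-treated control arrays. All knockdown arrays lay below all TNF-treated control arrays, and within numbers the differences were -1.0, -0.62 and -0.71. The mean difference of -0.77 ± 0.23, or 1.71-fold lower, was not called without the block (limma adjusted p = 0.328) and was called with it (blocked adjusted p = 0.00685). Without TNF-treated control array 1, the highest, the difference was -0.51 (adjusted p = 0.618).

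Set against unstimulated control cells (8.95, 8.74 and 8.42), Ptger4 in TNF-treated knockdown cells overlapped them and differed by -0.10 ± 0.23 (limma adjusted p = 0.91, blocked 0.676). The level of TNF-treated knockdown cells lay below the unstimulated level within every number, by 0.05, 0.23 and 0.03 log2 units. As the knockdown line was not measured without TNF-α, a lower baseline and a smaller response cannot be told apart, for this gene or for the others.

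**Figure D2:**
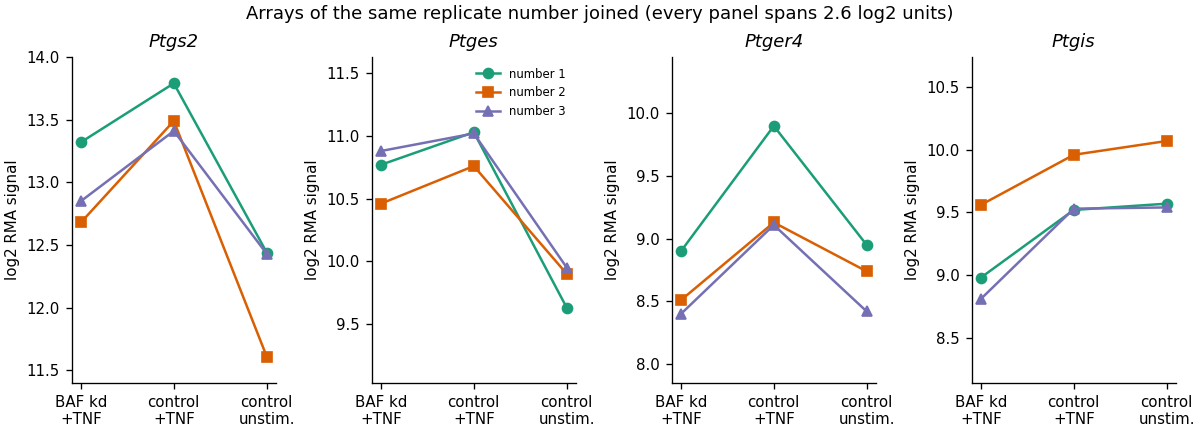
RMA log2 signal (y axis, 2.6 units in every panel, not starting at 0) of Ptgs2, Ptges, Ptger4 and Ptgis, with lines joining arrays of the same replicate number across BAF-knockdown cells with TNF-α, control cells with TNF-α and unstimulated control cells (x axis). Within every number Ptger4 peaks in TNF-treated control cells, and Ptgis is lower in knockdown cells than in either control group, by 0.39 to 0.72 against TNF-treated control cells.

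Ptgis, the prostacyclin synthase, was also lower in the knockdown. Its level was 8.98, 9.56 and 8.81 in BAF-knockdown arrays, against 9.52, 9.96 and 9.53 in TNF-treated control arrays. The groups overlapped, because array 2 was the highest in each of them, but within numbers the knockdown was lower each time, by 0.54, 0.39 and 0.72. The mean difference was -0.55 ± 0.22, or 1.47-fold lower (limma adjusted p = 0.518, not called). With the block its standard error was 0.07 and it was called (blocked adjusted p = 0.00592). Against unstimulated control cells (9.57, 10.07 and 9.54) the difference was -0.61 ± 0.22 (limma adjusted p = 0.302, blocked 0.00266).

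Both blocked calls in the knockdown depended on which replicate number was included. Without all arrays numbered 2, Ptger4 differed by -0.85 and Ptgis by -0.63 (blocked adjusted p = 0.0108 and 0.0131). Without those numbered 1 they differed by -0.66 and -0.56 (0.176 and 0.224), and without those numbered 3 by -0.81 and -0.47 (0.104 and 0.0797), none of which was called.

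Ptgs2 had lower values in the knockdown but passed neither fit. Its level was 13.32, 12.68 and 12.85 in BAF-knockdown arrays, against 13.79, 13.49 and 13.41 in TNF-treated control arrays. The groups did not overlap, and the differences within numbers were -0.47, -0.80 and -0.56. The mean difference was -0.61 ± 0.24, or 1.53-fold (limma adjusted p = 0.516, blocked 0.0768). Relative to unstimulated control cells (12.44, 11.61 and 12.43), Ptgs2 in TNF-treated knockdown cells was 0.79 ± 0.24 higher, called with the block alone (limma adjusted p = 0.211, blocked 0.0219). On the log2 scale this is 56.3% of the difference in control cells, with 64.7%, 57.3% and 42.9% within numbers 1, 2 and 3. Without unstimulated array 2, the lowest, the difference was 0.51 and the share 45.6%.

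Ptges was the member of the responsive group with the smallest difference. Its level was 10.77, 10.46 and 10.88 in BAF-knockdown arrays, against 11.03, 10.76 and 11.02 in TNF-treated control arrays. The groups overlapped, and the difference of -0.23 ± 0.13, or 1.17-fold, was not called (limma adjusted p = 0.74, blocked 0.424). Without BAF-knockdown array 2 it was -0.11. Against unstimulated control cells (9.63, 9.90 and 9.95), all knockdown arrays were higher, by 0.88 ± 0.13 (limma adjusted p = 0.0208, blocked 0.00387). That is 79.2% of the difference in control cells, and 81.5%, 65.5% and 86.9% within numbers, or 90.1% without BAF-knockdown array 2. Without the block this call was lost when any of the unstimulated arrays, control array 1 with TNF-α, or BAF-knockdown array 1 or 3 was left out (adjusted p between 0.0503 and 0.105). Whether the share differed between Ptges, Ptgs2 and Ptger4 was not tested.

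**Figure D3:**
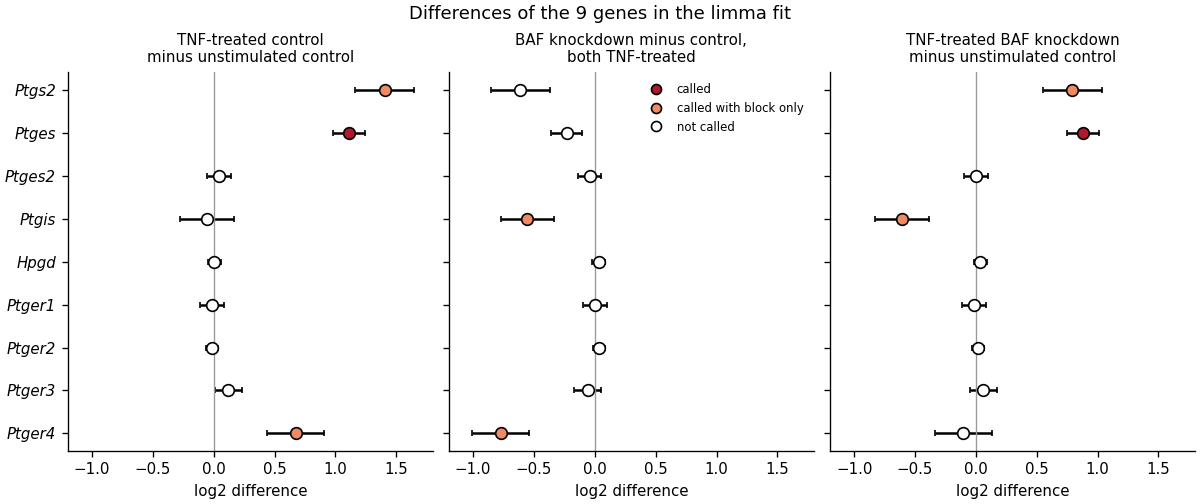
Log2 difference (x axis) of the 9 measured genes (y axis) in TNF-treated minus unstimulated control cells, BAF-knockdown minus control cells with TNF-α in both, and TNF-treated knockdown minus unstimulated control cells. Points are fitted differences and bars 1 standard error without the block (n = 3 arrays per group), filled red where called and orange where called with the replicate block alone. Ptges lies at 1.11, -0.23 and 0.88, and Ptger4 at 0.67, -0.77 and -0.10.

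The remaining members differed little with the knockdown. Ptges2 averaged 9.06 ± 0.09 in BAF-knockdown and 9.10 ± 0.11 in TNF-treated control cells (SD, n = 3 each), a difference of -0.04 ± 0.10. Ptger1, the calcium-mobilising EP1 receptor, averaged 7.89 in both groups (SD 0.03 in knockdown and 0.20 in control cells). Hpgd, Ptger2 and Ptger3 differed by 0.03 ± 0.05, 0.04 ± 0.05 and -0.06 ± 0.11, at the dim levels given above.

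By count, 0 of the 9 measured members were called in the knockdown comparison by limma, where 0.0355% of all genes were called higher and 0.102% lower, while 3 members were lower at an unadjusted p under 0.05, as were 4.75% of all genes. By the rule the methods give for dependence on the remodelling complex, a difference over 0.3 with no test, 3 members (Ptger4, Ptgs2 and Ptgis) were lower and 0 higher, against 3.27% and 1.87% of all genes. With the block 0 were higher and 2 lower, against 0.98% and 2.33% of all genes. Knockdown arrays lay wholly below the TNF-treated control arrays in 2 members (Ptgs2 and Ptger4), as in 5.47% of all genes. The median difference was -0.06 over the members and 0.01 over all genes. For TNF-treated knockdown against unstimulated control cells, 1 member was higher and 0 lower (0.518% and 0.599% of all genes), or 2 higher and 1 lower with the block (1.98% and 3.36%). In 2 members all knockdown arrays exceeded all unstimulated ones, as in 7.01% of all genes. Without all arrays numbered 1, the blocked fit called none of these 3 (adjusted p = 0.382 for Ptgs2, 0.131 for Ptges and 0.148 for Ptgis), and without those numbered 3 it did not call Ptges (0.0748). This comparison shares arrays with both of the others.

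Levels of the fibroblast markers also differed between these groups. Of the 10, 0 were called by limma without the block, where 0.0355% of all genes were higher and 0.102% lower. With the block 3 were lower, S100a4 (-1.18), Col3a1 (-0.93) and Pdgfra (-0.57), against 2.33% of all genes. The median difference of the 10 was -0.15. The mean log2 level of the 10 markers ran from 10.75 to 10.95 in BAF-knockdown arrays, against 11.06 to 11.36 in TNF-treated and 11.14 to 11.39 in unstimulated control arrays. The mean of the 9 leukocyte markers ran from 6.58 to 6.65 in knockdown and from 6.57 to 6.66 in TNF-treated control arrays. For the 6 epithelial markers it ran from 7.35 to 7.49 in knockdown and from 7.32 to 7.40 in TNF-treated control arrays, and for the 5 endothelial markers from 6.90 to 7.01 in knockdown and from 6.88 to 6.98 in TNF-treated control arrays. Their part in the lower values of Ptger4, Ptgis and Ptgs2 was not tested. In bulk RNA, fewer cells of a kind and less RNA per cell cannot be told apart.

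Genes around the members in the pathway were taken from 7 lists with 78 entries, of which 73 were measured. After TNF-α, 0 of the 73 were called by limma in either fit, and 3 had an unadjusted p under 0.05, as did 3.07% of all genes. The largest differences belonged to Pde4b, a phosphodiesterase that degrades cyclic AMP (0.40 ± 0.14, adjusted p = 1, blocked 0.12), to the lysosomal phospholipase gene Pla2g15 (-0.34 ± 0.24) and to Ptgir, the prostacyclin receptor. Ptgir measured 7.95, 7.90 and 8.02 in TNF-treated control arrays, against 7.68, 7.74 and 7.69 in unstimulated arrays. These did not overlap, but the difference of 0.25 ± 0.05 was not called (adjusted p = 0.261, blocked 0.203).

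In the knockdown 0 of the 73 genes were called without the block, 13 had an unadjusted p under 0.05 (8.43% of all genes did), and 1 was higher and 9 lower with it (0.98% and 2.33% of all genes). Of 19 measured genes for arachidonic acid release, 2 were lower and 1 higher in the blocked fit. Pla2g4a, the cytosolic phospholipase that supplies arachidonic acid to cyclooxygenases, measured 11.03, 10.75 and 10.57 in BAF-knockdown arrays, against 11.39, 11.12 and 11.12 in TNF-treated control arrays. Every knockdown array was lower than every control array (-0.43 ± 0.13, limma adjusted p = 0.328, blocked 0.0103). Mgll, a monoglyceride lipase, differed by -0.43 (blocked adjusted p = 0.0151), and the phospholipase gene Pla2g4c by 0.29 (0.0359).

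The largest differences in the 7 lists, those of Mgst1 and Mgst2, belonged to microsomal glutathione transferases, relatives of Ptges in the MAPEG family of membrane enzymes. Mgst1 measured 9.08, 9.68 and 8.78 in BAF-knockdown arrays, against 10.66, 11.07 and 10.44 in TNF-treated control arrays. The groups lay far apart, and the differences within numbers were -1.58, -1.39 and -1.66. The mean difference was -1.54 ± 0.26 (limma adjusted p = 0.0742, blocked 6.72e-05). Mgst2 differed by -0.94 ± 0.20 (adjusted p = 0.131, blocked 0.000473) and Mgst3 by -0.34 ± 0.20 (0.761, blocked 0.115). None of the 3 was called after TNF-α, where their differences were between -0.11 and 0.01.

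**Figure D4:**
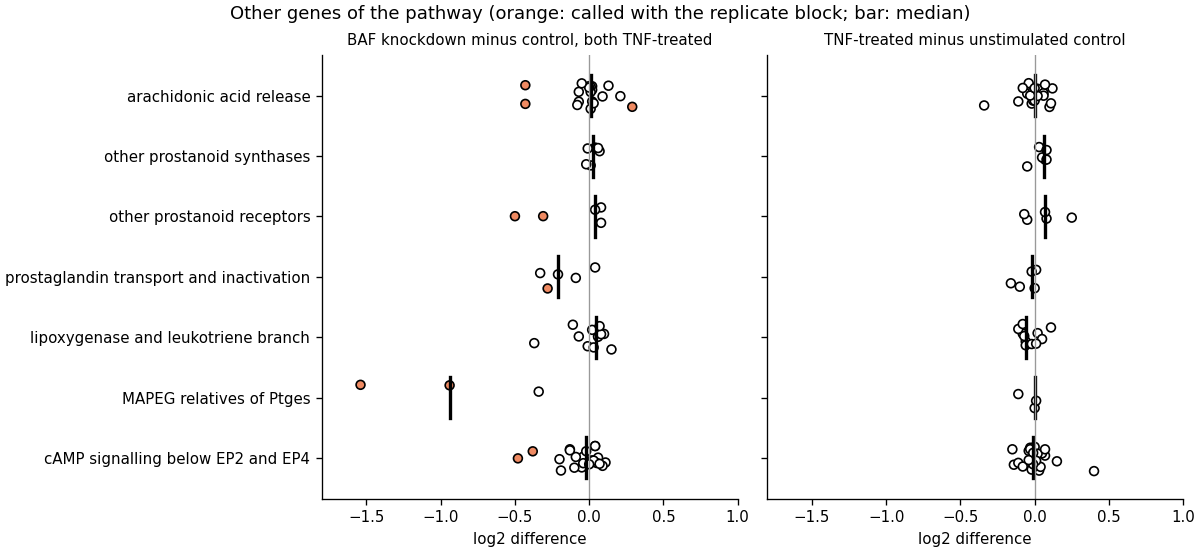
Log2 difference (x axis) of the 73 measured genes in 7 pathway lists (y axis) for BAF-knockdown minus control cells (each with TNF-α) and for TNF-treated minus unstimulated control cells. Each point is 1 gene, orange where called with the replicate block, and bars are list medians. The knockdown panel has 10 orange points, 9 of them below 0 with Mgst1 at -1.54, and the TNF-α panel has none.

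Of 5 other prostanoid receptors, 2 were lower in the knockdown with the block, against 2.33% of all genes. Ptgir measured 7.71, 7.61 and 7.61 in BAF-knockdown arrays, all below the 7.95, 7.90 and 8.02 of TNF-treated control arrays (-0.31 ± 0.05, limma adjusted p = 0.065, blocked 0.025). Ptgfr, the receptor for prostaglandin F, differed by -0.50 ± 0.26 (0.686, blocked 0.0134). Among the 5 genes for transport and inactivation, Abcc4, an exporter that carries prostaglandins, measured 9.35, 9.21 and 9.32 in BAF-knockdown arrays, against 9.65, 9.56 and 9.51 in TNF-treated control arrays (-0.28 ± 0.06, adjusted p = 0.131, blocked 0.0309). For TNF-treated knockdown against unstimulated control cells, 3 of the 73 list genes were called lower without the block, namely Abcc4 (-0.44 ± 0.06, limma adjusted p = 0.0165), Pde4d (-0.52, 0.0165) and Mgst1 (-1.55, 0.0346), and 7 with it. Over all genes 0.599% were called lower without the block in this comparison, and 3.36% with it. Ptgr1, a prostaglandin reductase, differed by -0.33 ± 0.10 and was not called.

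Downstream of EP2 and EP4, 2 of 23 measured cyclic AMP signalling genes were lower in the knockdown with the block (2.33% of all genes were), both of them phosphodiesterases. Pde4d measured 9.52, 9.39 and 9.39 in BAF-knockdown arrays, against 9.91, 9.95 and 9.87 in TNF-treated control arrays (-0.48 ± 0.07, limma adjusted p = 0.0565, blocked 0.00864). Pde4b measured 8.92, 8.76 and 8.72 in BAF-knockdown arrays, against 9.43, 9.13 and 8.97 in TNF-treated control arrays (-0.38 ± 0.14, adjusted p = 0.453, blocked 0.04). Its knockdown mean of 8.80 lay beside the unstimulated mean of 8.78. None of the 6 other prostanoid synthases and none of the 12 lipoxygenase and leukotriene genes was called in either fit. Their largest differences in the knockdown were those of Hpgds (0.07 ± 0.11) and Alox5ap (-0.37 ± 0.09, adjusted p = 0.202, blocked 0.107). By list, the median difference in the knockdown was -0.94 for the MAPEG relatives and -0.21 for transport and inactivation, and between -0.02 and 0.05 for the others, against 0.01 over all genes.

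The genes whose levels followed the members most closely over the 9 arrays were found by Pearson correlation, as a description, since arrays that share a treatment and a replicate number are not independent. For Ptges these were Tnip1, an inhibitor of NF-kB signalling (r = 0.98), the chemokine Ccl3 (0.98), Mug1 (0.96), the stress phosphatase subunit Ppp1r15a (0.96) and the NF-kB inhibitor Nfkbie (0.95). For Ptgs2 they were the immediate early gene Ier2 (0.95), the AP-1 subunit Fosl1 (0.94), Oacyl (0.94), the growth factor epiregulin, Ereg (0.94) and Slfn2 (0.94). The lists shared no gene, and the correlation of Ptgs2 with Ptges was 0.835 over the same arrays.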

How the data were processed

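Total RNA of 9 cultures was hybridised by the authors to Affymetrix mouse Gene 1.0 ST arrays. The authors deposited log2 signals after RMA (background correction, quantile normalization, median polish), with the Bioconductor package affy according to the study's reporting summary. The sources used here do not give the genome build behind the array annotation. RMA forces equal distributions on all arrays, so a shift of most genes would not be seen. Values ran from 3.36 to 14.61 in 27024 rows, and no pair of arrays was identical throughout. In 50.93% of rows, however, 2 or more arrays had the same value. Among the dim members, Hpgd had 6, Ptger2 7 and Ptger3 8 distinct values on the 9 arrays. Arrays give no read depth, and their number limits the precision.

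Rows were named from the platform annotation (1 symbol in 21319 rows, several in 1430, none in 4275). The row with the highest mean stood for each symbol, leaving 19698 genes, and each member had 1 row. Members and lists were chosen with earlier results of these data known. All members are named, with list genes called in either fit or otherwise showing the largest differences, and 5 most alike genes per called member and for Ptgs2.

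The tests were those of limma (version 3.58.1, R 4.3.3), with a mean for each group fitted over 9 arrays by lmFit and moderated by eBayes, two-sided and adjusted by Benjamini-Hochberg. The fit was run on simulated data with independent noise on each array. No effect of the replicate number was simulated, so that run does not cover arrays that deviate together. The methods give different days for the replicates. Deviations from group means correlated between 0.21 and 0.724 for same-numbered arrays, against -0.566 to 0.0111 for others, so numbers exceeded the minimum of 0.1 and were taken to pair arrays. Deviations cancel within a group, so higher correlations of same-numbered arrays push the others down, and the second range is no independent support. The pairing was thus read from the same arrays that were tested. Alternatives were the replicate block, 6 arrays only, array weights, median centring, a filter on dim genes, a trended prior, all rows, the methods' t-test (Student's, difference over 0.35, which the methods apply to induced genes alone and which was run here with 0.3 for the knockdown) and leaving out arrays. The methods' own rule for the knockdown, a difference over 0.3 without a test, was added after seeing the data. Promoter sequences are from RefSeq (GRCm38.p6).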

Additional observations from a re-analysis of the deposited data

How the results depend on the processing

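After TNF-α, 1 member was called higher by limma. The count was 3 with the replicate block, 0 with only the 6 arrays compared, 2 by the methods' t-test unadjusted and 0 after adjustment, and between 0 and 1 when 1 array was left out. In the blocked fit without all arrays of 1 number it was between 0 and 3. In the knockdown 0 members were called lower, but 2 with the block (Ptgis and Ptger4), 3 by a difference over 0.3 alone (a rule chosen after seeing the data, which applies no test), and between 0 and 2 in the blocked fit without 1 number. For TNF-treated knockdown against unstimulated control cells, 1 member was higher, but 2 with the block, 0 with 6 arrays and 0 by the adjusted t-test, between 0 and 1 without 1 array and between 0 and 2 in the blocked fit without 1 number. There 0 were lower, but 1 with the block (Ptgis), and between 0 and 1 in the blocked fit without 1 number. With only 6 arrays the fit has fewer samples, as it does without 1 array, and otherwise the cause was not tested. Among single members, over the alternatives, a call was lost 20 times and gained 16 times, and none called in either fit changed sign. With array weights, median centring, the filter on dim genes, the trended prior and all rows, each count of calls stayed the same. Hpgd, Ptger2 and Ptger3 lay below the first quartile of signal on all arrays, and the filter removed them. Over all genes, the block moved the calls after TNF-α to 72 higher and 6 lower, against 27 and 0 without it. For the knockdown it gave 193 higher and 459 lower, against 7 and 20, and for TNF-treated knockdown against unstimulated control cells 390 and 662, against 102 and 118. Leaving out arrays was not run for the pathway lists.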
